A study of Mus musculus with 35 samples.

Results

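The genes described here encode the proteins of the cytosolic ribosome. They were taken by symbol as protein-coding genes on the mouse autosomes whose names start with Rpl or Rps followed by a digit, with the addition of Rplp0, Rplp1, Rplp2 and Rpsa. The pattern matched 101 protein-coding symbols. Of these, 6 lay on the X chromosome and 12 named other genes (Rps6k kinases, Rps19bp, Rps23rg and pseudogene symbols), which left 83 of the 20665 protein-coding autosomal genes. The 83 were made up of 30 small subunit genes, 43 large subunit genes and 10 paralogs or retrocopies whose symbols end in l, l1 or rt.

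Histone H3 carrying trimethyl groups at lysine 4 (H3K4me3), lysine 27 (H3K27me3) or lysine 36 (H3K36me3) was mapped by CATCH-seq, in which native chromatin from few cells is cut with micrococcal nuclease and precipitated in the presence of carrier DNA. Cultured cells came from H18, an embryonic stem cell line with the reporters Prdm1-mVenus and Dppa3-ECFP, as oogonia-like cells at c7 and as oocyte-like cells at c13 and c34. Oocytes from animals were fetal oocytes at E18.5 from mice with the same pair of reporters, and germinal vesicle (GV) oocytes, the full-grown stage, from BDF1 mice without a named reporter. The genotype label of all groups was WT, and the study's title speaks of growing GV oocytes out of embryonic stem cells with no ovarian soma. The cultured stages rest on a single cell line, and GV oocytes differ from the other groups in mouse strain as well as in stage, so strain and stage cannot be told apart there.

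Ribosomal proteins fold and hold the ribosomal RNAs of the small and large subunits and are needed in matched amounts. A growing oocyte makes and stores ribosomes for the early embryo, and the genes of ribosomal proteins are among the most strongly transcribed in most cells. Their transcripts start with a C followed by a run of pyrimidines, the terminal oligopyrimidine (TOP) motif, through which growth signals set their translation. H3K4me3 lies at active and poised promoters, H3K27me3 is written by Polycomb repressive complex PRC2, and H3K36me3 is written along transcribed gene bodies.

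The values were 13 peak lists, 1 per mark and stage, with H3K27me3 alone at c7. The lists give positions with no height or score, their depth is unknown, and none is a replicate of another, so no difference between stages could be set against replicate spread and no test was made. The labels name 1 library each for H3K4me3 and H3K27me3 in GV oocytes and 4 for H3K4me3 in c13. Every other mark and stage with a list had 2. A peak no more than 1 kb from either end of the gene model counted as a mark for H3K4me3 and H3K27me3. For H3K36me3 the peaks had to cover 20% or more of the body. Most shares are given beside that of all 20665 genes. Some are also given beside that of the 7342 genes under 10 kb, since 82 of the 83 were that short (median 3183 bp, 374 to 11774 bp). Where no such share is given, short genes can still differ from all genes. H3K4me3 peaks lay on a 1 kb grid and the other peaks on a 10 kb grid, and 55 of the 83 genes lay within a single 10 kb step. A list sums a population of cells, so a mark in a few cells and a mark in all cells cannot be told apart. As a check of the labels, the 5 oocyte genes Ddx4, Dazl, Figla, Nobox and Zp3 had H3K4me3 in all 4 lists of that mark. The 5 ovarian somatic genes Foxl2, Amhr2, Fst, Wt1 and Nr2f2 also had H3K4me3 in c13, c34 and E18.5 oocytes and 3 of them in GV oocytes. All 5 somatic genes carried H3K27me3 at every stage except GV, where 4 did. H3K27me3 was also at 2, 4, 1, 2 and 1 of the 5 oocyte genes in c7, c13, c34, E18.5 and GV oocytes.

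The starts of a few genes are shown first, because the pyrimidine run there is the known signature of ribosomal protein transcripts and was more frequent in these genes than in others, while the bases before the start differ between a gene and its copy. Each sequence holds 60 bases before and 20 bases from the annotated start in RefSeq (GRCm38.p6), read 5′ to 3′ on the strand of the gene, with the unbroken run of pyrimidines through the start in capitals. Rpl7a and Rpl35, both of the large subunit, had the longest such runs shown, of 21 and 18 bases. Rps27 of the small subunit is set beside its retrocopy Rps27rt. Rpl10l and Rpl3l are paralogs with no run through the start. They lie at chr2:26910747-26910826 (plus strand), chr2:39005112-39005191 (minus), chr3:90213629-90213708 (minus), chr9:114982720-114982799 (minus), chr12:66284382-66284461 (minus) and chr17:24727766-24727845 (plus), in the order printed.
Rpl7a: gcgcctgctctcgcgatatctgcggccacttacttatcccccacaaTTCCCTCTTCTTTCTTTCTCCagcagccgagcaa
Rpl35: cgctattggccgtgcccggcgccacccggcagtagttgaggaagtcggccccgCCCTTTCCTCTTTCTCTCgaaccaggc
Rps27: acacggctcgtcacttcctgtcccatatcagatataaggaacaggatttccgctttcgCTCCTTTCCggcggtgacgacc
Rps27rt: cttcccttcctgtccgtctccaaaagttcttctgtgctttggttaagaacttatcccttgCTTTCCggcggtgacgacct
Rpl10l: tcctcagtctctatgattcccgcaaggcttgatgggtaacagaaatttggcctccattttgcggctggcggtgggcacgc
Rpl3l: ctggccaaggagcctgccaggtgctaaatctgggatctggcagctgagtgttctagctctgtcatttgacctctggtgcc

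Promoter windows of 250 bases before to 50 bases after the start were found for 63 of the 83 genes and for 16457 of the 20665. A pyrimidine run of 8 or more bases through the start was present in 16 of the 63 (25.4%), against 3.52% of all windows. A C at the annotated start followed by at least 4 pyrimidines was present in 14 (22.2% against 2.17%). The letters CTTTCC, on the gene's strand within 20 bases of the start, were found in 11 (17.5% against 1.94%), among them Rpl35, Rps27, Rps27rt, Rpl13a, Rpl18 and Rpl38. A start annotated a few bases away hides the run, so these shares describe the annotation as well as the genes. Searched on both strands of the whole window, CCGGAAG, the core of ETS factor sites, was found in 24 of 63 (38.1% against 12.3%), and AAGATGGC, the YY1 core, in 6 (9.52% against 3.21%). GGGCGG, the SP1 core, was in 57.1% against 47.3%, and CACGTG, the E box, in 7.94% against 7.97%. The TATA letters TATAAA, sought 40 to 20 bases before the start, were in Rpl22l1 alone (1.59% against 2.83%). The median window held 21 CpG dinucleotides against 14 over all genes, with 33 in Rpl7a, 27 in Rpl35, 22 in Rps27, 9 in Rps27rt and 2 in Rpl3l.

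H3K4me3 was present at nearly all of these genes at every stage that has a list. It marked 82 of 83 genes in c13 (98.8%, against 72.6% of all genes), 81 in c34 (97.6% against 67.8%), 80 in E18.5 oocytes (96.4% against 62.1%) and 81 in GV oocytes (97.6% against 75.5%). Among all genes under 10 kb the shares were 56.8%, 52.9%, 46.8% and 60.9%. All 30 small subunit and all 43 large subunit genes were marked in each of the 4 lists, so every gene without a peak was a copy. Rpl32l was marked at no stage, Rps27rt in c13 only, and Rpl37rt at all stages but E18.5. Of the members, 9 had no other protein-coding gene within 10 kb, and all 9 were marked at every stage.

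**Figure D1:**
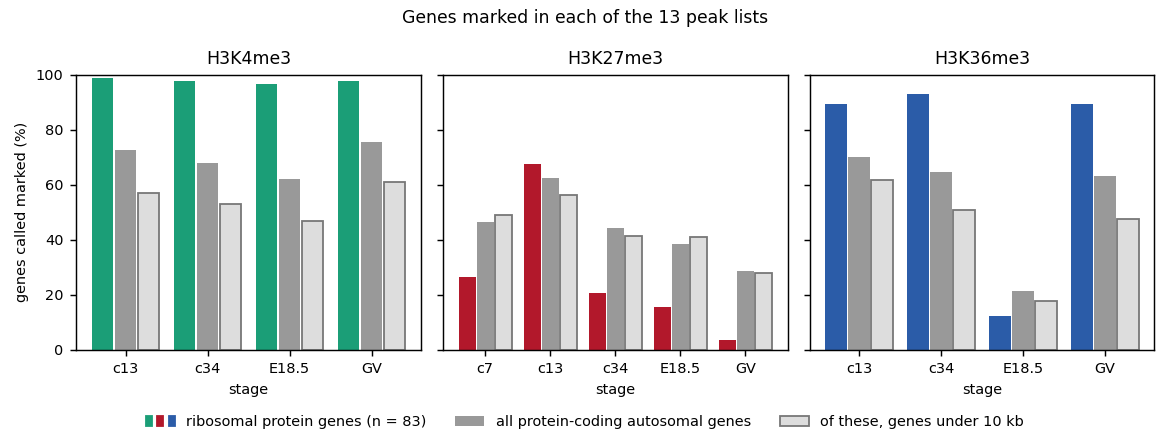
Percent of genes called marked (vertical axis) at each stage for H3K4me3, H3K27me3 and H3K36me3, for the 83 ribosomal protein genes (coloured), all 20665 protein-coding autosomal genes (dark grey) and those under 10 kb (light grey). H3K4me3 was above 96% at each stage, H3K27me3 was highest in c13 and lowest in GV oocytes at 3.61%, and H3K36me3 was at 12.0% in E18.5 oocytes and near 90% elsewhere.

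Fewer genes were covered in full by H3K4me3 in E18.5 and GV oocytes than in culture. Where both gene ends had to be marked, 72 genes passed in c13 and 66 in c34, but only 46 (55.4%) in each of E18.5 and GV oocytes. The shares of all genes, from c13 to GV, were 31.5%, 21.0%, 15.4% and 29.5%. The whole gene body was covered in 61 genes in c13, 48 in c34, and in 32 and 30 genes of E18.5 and GV oocytes. Among all genes under 10 kb, the body was covered in full in 32.5%, 21.1%, 14.6% and 29.8%. An annotated start was available for 62 of the genes under 10 kb. From c13 to GV, it lay in a peak in 61, 60, 59 and 60 of them. Peaks over these starts ran a median of 7.61 kb downstream in c13 and 3.70 kb in c34. The downstream medians were 1.73 kb for E18.5 oocytes and 1.72 kb for GV oocytes. Upstream, the peaks reached medians of 3.34, 4.36, 1.57 and 4.30 kb. All short genes with a peak over the start had downstream medians of 6.78, 3.48, 2.28 and 4.31 kb from c13 to GV. Their upstream medians were 4.51, 3.48, 1.85 and 7.62 kb. These lay above those of the ribosomal protein genes on both sides at E18.5 and in GV oocytes. In c34 they lay below on both sides, and in c13 above upstream and below downstream.

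The widest peak within 1 kb of each gene had a median of 11.5, 10 and 6.5 kb in c13, c34 and E18.5 oocytes, where all genes with a peak had 9, 9 and 6 kb. In GV oocytes the median was 12 kb with quartiles of 4 and 22 kb, against quartiles of 8 and 37 kb over all genes. Genes under 10 kb with a peak had medians of 13, 9, 6 and 18 kb from c13 to GV, so that the median of the ribosomal protein genes lay below that of short genes in c13 and GV oocytes, and below that of all genes in GV oocytes only. GV oocytes also had the broadest H3K4me3 list, whose peaks covered 612 Mb of the autosomes against 132 to 253 Mb at the other stages. The labels name 1 H3K4me3 library for GV oocytes. When narrow peaks, below the median width of the list, were left out, 44 genes (53.0%) were marked in GV oocytes, against 50.03% of all genes. The widest single peaks were in c13. Rpl22, which encodes a large subunit protein, lay in a peak of 230 kb there (chr4:152211001-152441000), and the same gene had 3 kb in c34, 35 kb at E18.5 and 16 kb in GV oocytes. Rps21 and Rps10, both of the small subunit, lay in peaks of 172 and 146 kb in c13, followed by Rps15 at 91 kb and Rpl38 at 90 kb.

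In c34 the widest were at Rpl6 (51 kb), Rpl5 (44 kb), Rpl37 (41 kb), Rpl35 (39 kb) and Rpl38 (37 kb). Rpl5 and Rpl11 join the ribosome together with 5S ribosomal RNA and hold the p53 regulator Mdm2 when ribosome assembly fails. At E18.5 the widest were Rpl22 and Rpl38 (35 kb each), Rpl18 (23 kb), Rpl15 (22 kb) and Rps18 (19 kb). In GV oocytes they were Rpl11 (128 kb), Rpl19 (94 kb), Rpl17 (72 kb), Rpl10l (71 kb) and Rps29 (62 kb). Rpl38, a large subunit protein needed for patterning of the mouse skeleton, was among the 5 widest in c13, c34 and at E18.5, and had 8 kb in GV oocytes.

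**Figure D2:**
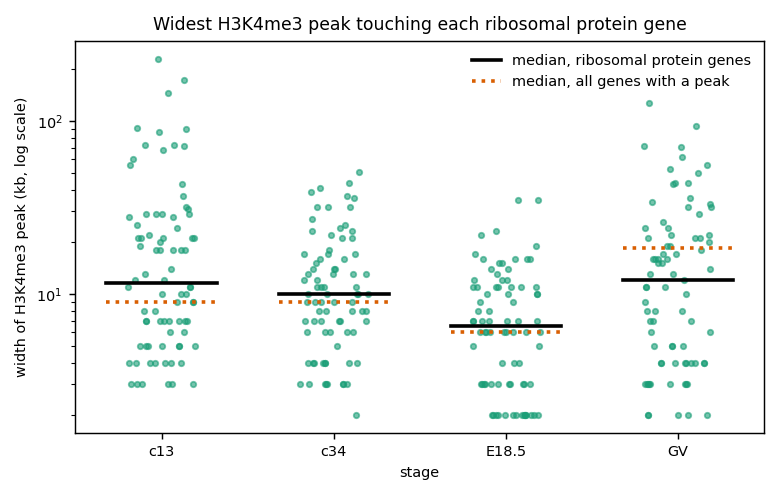
Width in kb, on a log scale, of the widest H3K4me3 peak within 1 kb of each ribosomal protein gene (points), by stage, with the median of these genes (black line) and of all protein-coding autosomal genes with a peak (dotted line). The gene median lies above the median of all genes in c13, c34 and E18.5 oocytes and below it in GV oocytes, where it was 12 kb.

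Between stages, H3K4me3 calls were nearly the same. Of the 83, 2 genes were marked in c13 and not at E18.5 (Rpl37rt and Rps27rt, against 11.2% of all genes) and 0 the other way (0.721%). Between c34 and GV oocytes 0 differed in either direction (2.8% of all genes in c34 only and 10.5% in GV only). Between c13 and c34, Rps27rt was marked in c13 alone (9.07% of all genes) and 0 in c34 alone (4.33%), and between E18.5 and GV oocytes Rpl37rt was in GV only (17.1%) and 0 in E18.5 only (3.69%). The covered length of the windows of 5 kb around both ends differed more. It was higher in c13 than at E18.5 in 68 genes and lower in 11, with medians of 9487 and 6067 bp, against 5000 and 3000 bp over all genes. The largest excess in c13 was at Rpl37rt (16079 against 0 bp), Rps10 (14830 against 2000), Rpl21 (14143 against 2032), Rps14 and Rpl13. The largest excess at E18.5 was at Rps3a1 (4000 bp in c13 against 10668), Rps13, Rps7, Rps23 and Rpl31.

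Between c34 and GV oocytes the median covered length was 7927 and 7040 bp, with 43 genes higher in c34 and 24 in GV. Rpl18 (15369 bp in c34 against 4000 in GV), Rpl6 (14741 against 6500), Rpl37rt and Rps6 were among those that led in c34. Rps6 is the small subunit protein phosphorylated by S6 kinase. Rpl19 (7000 bp in c34 against 18491 in GV), Rpl27a, Rpl3, Rpl3l and Rpl37a led in GV oocytes. Over all genes the order was the opposite, with medians of 5000 and 7144 bp. Within culture, 45 genes had more covered length in c13 than in c34 and 26 had less, with medians of 9487 and 7927 bp, against 5000 bp at both stages over all genes. Rpl22 (19647 bp in c13 against 4082 in c34), Rpl3 (15626 against 3220), Rpl21, Rps24 and Rps28 led in c13, and Rpl6 (7000 bp in c13 against 14741), Rpl30, Rps7, Rps15a and Rps6 led in c34. Between the oocytes from animals, 24 genes had more at E18.5 and 49 had more in GV oocytes, with medians of 6067 and 7040 bp, against 3000 and 7144 bp over all genes. Rpl18 (13534 bp at E18.5 against 4000), Rps13 (12190 against 4000), Rpl15 and Rps18 led at E18.5. Rpl3l (9175 bp at E18.5 against 18175), Rpl10l (3000 against 11023), Rps10, Rps19 and Rps15a led in GV oocytes.

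H3K27me3 was at fewer of these genes than of other genes at 4 of 5 stages, and at about as many in c13. It marked 22 of 83 in c7 (26.5%, against 46.3% of all genes), 56 in c13 (67.5% against 62.3%), 17 in c34 (20.5% against 44.3%), 13 at E18.5 (15.7% against 38.4%) and 3 in GV oocytes (3.61% against 28.4%). For GV oocytes the labels name 1 H3K27me3 library. Of all genes under 10 kb, 49% were marked in c7. Among genes under 10 kb that also had H3K4me3 at the same stage, the share was 77.1% in c13, 41.3% in c34, 34.9% in E18.5 oocytes and 21.5% in GV oocytes, above that of the ribosomal protein genes in all 4. With a window of 5 kb c34 had 27 marked genes (32.5%, against 49.4% of all genes) and GV oocytes had 7 (8.43% against 30.8%). The c13 list holds the widest H3K27me3 peaks: 18 of the 56 genes marked there lay in peaks of 1 Mb or more, and without such peaks 38 (45.8%) were marked, against 46.2% of all genes.

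**Figure D3:**
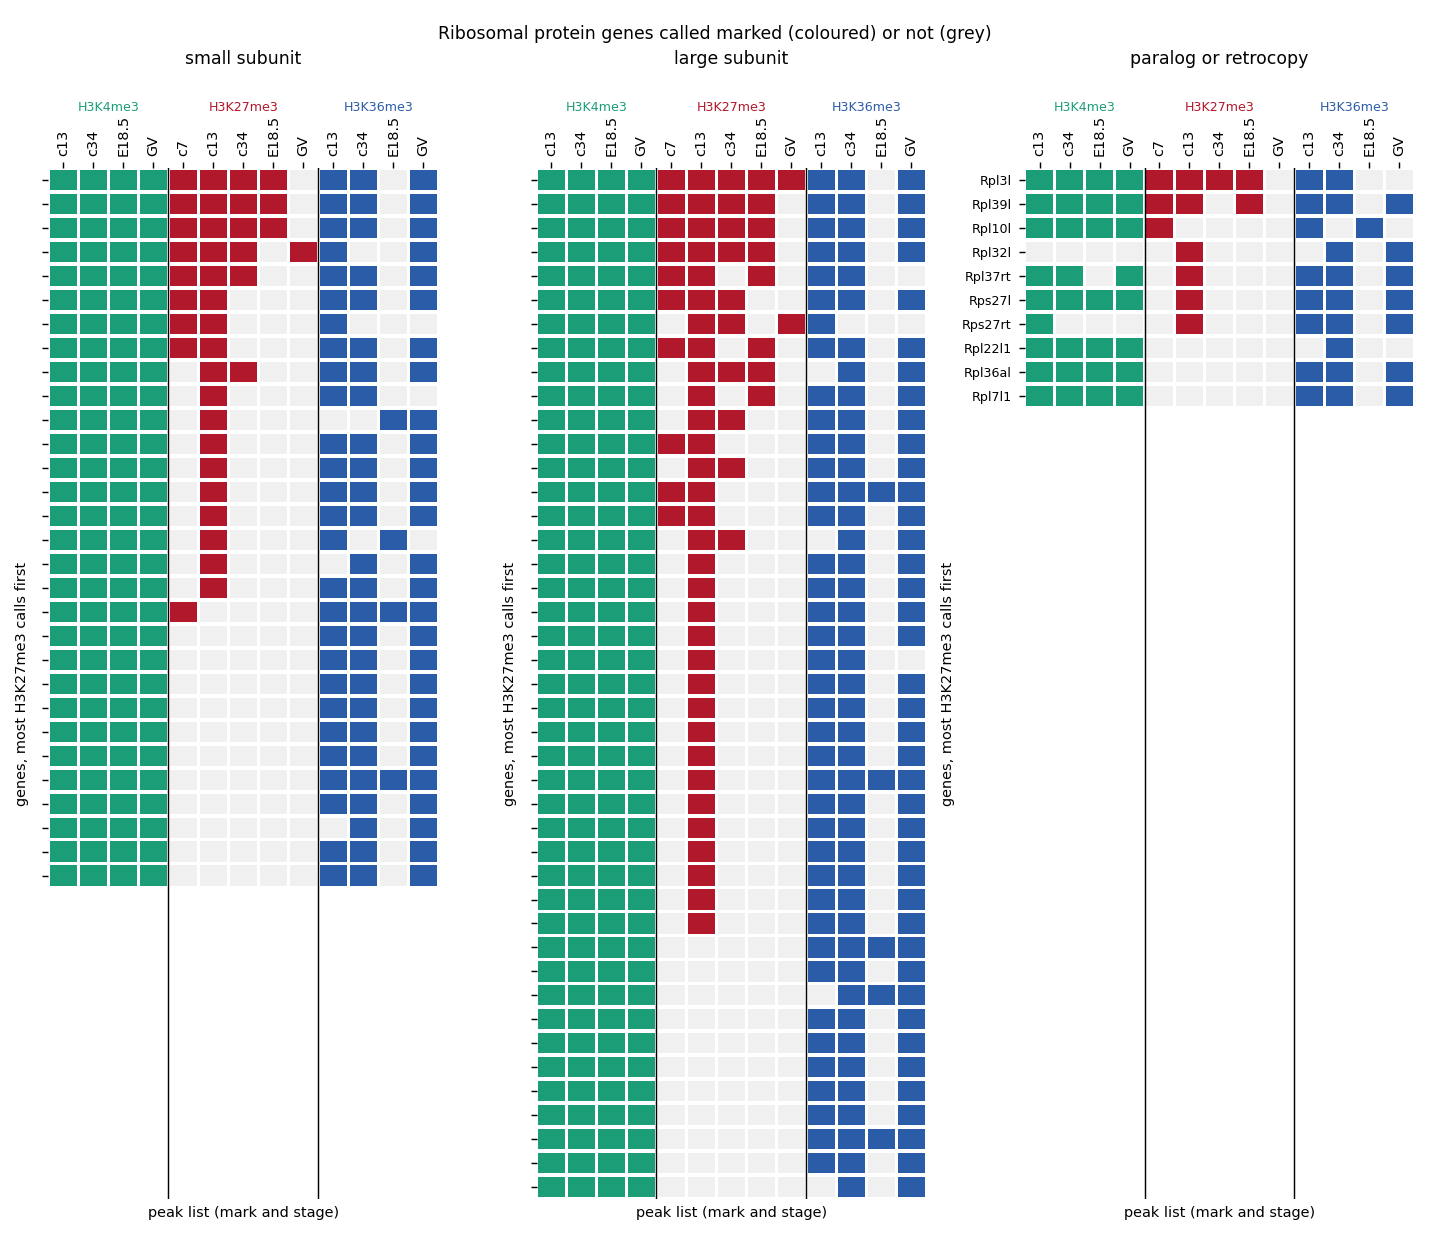
Calls for each of the 83 genes (rows, those with most H3K27me3 calls first, in 3 columns for small subunit, large subunit and paralogs or retrocopies, the last named) in the 13 peak lists, coloured where the gene was called marked and grey where it was not. The H3K4me3 block is filled for all subunit genes, H3K27me3 is filled mostly in c13, and the E18.5 column of H3K36me3 is filled for 10 genes.

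By stage pattern, 29 of the 83 genes carried H3K27me3 in c13 and nowhere else (34.9%, against 12.1% of all genes). They included the stalk proteins Rplp1 and Rplp2, which recruit elongation factors, as well as Rpl5, Rpl38, Rps19 and Rps2. A further 25 carried it at no stage (30.1% against 22.4%), of which the first by symbol were Rpl15, Rpl22l1, Rpl23a, Rpl24, Rpl27, Rpl35, Rpl36, Rpl36al, Rpl4 and Rpl6. Rps27, Rps6 and Rpl7a were also among them. At Rps27, the nearest H3K27me3 peak was 222666 bp away in c7, 132666 bp in c13 and 56352 bp in c34, and 306352 bp away in E18.5 oocytes and 242666 bp in GV oocytes. A set of 7 was marked in c7, c13, c34 and at E18.5 but not in GV oocytes (8.43% against 6.82%): Rpl22, Rpl26, Rplp0, Rps15, Rps21, Rps26 and Rpl3l. Rpl26 lay in peaks of 70, 140, 80 and 70 kb at these 4 stages, and 211565 bp from the nearest peak in GV oocytes. Rpl22 lay in peaks of 1890, 4870, 610 and 1690 kb and 5918 bp from a peak in GV oocytes.

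Rpl18 was the only member with H3K27me3 at all 5 stages, where 12.5% of all genes had it at all 5. Its gene (chr7:45715467-45720835, gene ID 19899) lay in peaks of 530 kb in c7, then 570 and 340 kb in c13 and c34, 400 kb in E18.5 oocytes and 250 kb in GV oocytes (chr7:45550001-45800000), which covered the whole body each time. The other members marked in GV oocytes were Rps3 and Rpl19. Rps3, a small subunit protein at the entry of the mRNA channel that also takes part in DNA repair, lay at chr7:99477896-99483709 in a GV peak of 540 kb. It was covered in full in c7, c13, c34 and GV oocytes and was 597895 bp from the nearest peak at E18.5. Rpl19, of the large subunit (chr11:98022003-98030493), was covered in full in c13 (320 kb), c34 (180 kb) and GV oocytes (160 kb), and was 12002 bp from a peak in c7 and 249507 bp at E18.5. Each of the 3 genes thus lay inside a domain many times its own length.

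In pairs of stages, 43 genes had H3K27me3 in c13 and not at E18.5 (51.8%, against 32.3% of all genes) and 0 the reverse (8.51%). Between c34 and GV oocytes, 14 had it in c34 only (16.9% against 18.4%) and 0 in GV only (2.42%). From c13 to c34, 39 had it in c13 only (47.0% against 25.1%) and 0 in c34 only (7.15%). From E18.5 to GV oocytes, 12 had it at E18.5 only (14.5% against 21.7%) and 2, Rps3 and Rpl19, in GV only (2.41% against 11.6%). From c7 to c13, 36 had it in c13 only (43.4% against 24.6%) and 2, among them Rpl10l, in c7 only (2.41% against 8.71%). Between c7 and E18.5, 11 had it in c7 only (13.3% against 15.1%) and Rpl34 and Rpl14 at E18.5 only (2.41% against 7.23%). These comparisons share lists, the c13 list above all, so their counts are not independent of each other. The longest stretches that were covered in c13 and not at E18.5 were at Rpl5 (18498 against 0 bp within 5 kb of its ends), Rpl19 (18491 against 0), Rps3, Rps19 and Rps7. Between c34 and GV oocytes they were at Rpsa (14604 against 0 bp), Rpl21, Rpl34, Rpl13a and Rpl26. Since these windows hold the gene and 5 kb on each side, a longer gene allows a larger value. From c13 to c34 the longest stretches covered in c13 alone were again at Rpl5, then at Rpl3 (15626 against 0 bp), Rps7, Rpl23 and Rps27l, and from c7 to c13 those covered in c13 alone were at Rpl5, Rpl19, Rpl23, Rps27l and Rps10. Genes covered at E18.5 and bare in GV oocytes were led by Rpl22 (19647 against 0 bp), Rpl3, Rpl39l, Rpl11 and Rpl34. Between c7 and E18.5, Rps3 (15814 against 0 bp), Rps7, Rpl31 and Rps14 were among those that led in c7, and Rpl34 (0 against 13572 bp), Rpl14 and Rpl39l (4804 against 14715 bp) at E18.5.

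Around the genes, H3K27me3 dipped over the gene itself at 4 stages. The share of the 83 genes whose middle was covered was 24.1% in c7, 18.1% in c34, 14.5% in E18.5 oocytes and 3.61% in GV oocytes. At 40 to 50 kb from the middle it was 34.4%, 37.5%, 27.1% and 15.8%. In c13 the shares were 65.1% at the middle and 67.3% away from it. Other genes under 10 kb had no such dip, with 47.5% at the middle and 44.5% away in c7, 39.6% and 38.1% in c34, 39.9% and 39.3% at E18.5, and 26.7% and 26.9% in GV oocytes. The regions around the ribosomal protein genes were themselves covered less often than those around other short genes in c7, E18.5 and GV oocytes, and about as often in c34. In c13 the order was the opposite, with 67.3% at 40 to 50 kb against 51.9% for other short genes. The gene middles there were at 65.1% against 54.9%.

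**Figure D4:**
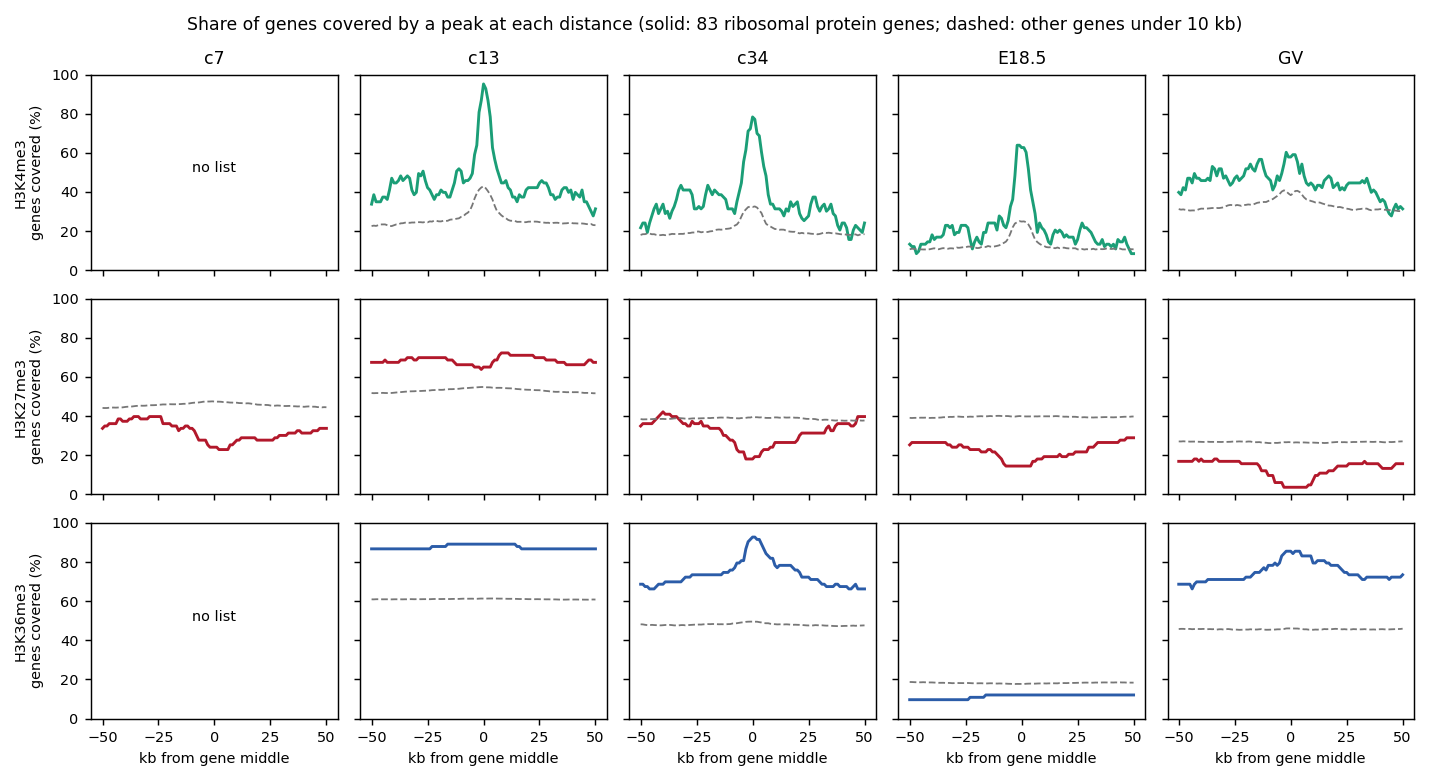
Percent of genes covered by a peak at each distance from the gene middle, from -50 to 50 kb, for the 83 ribosomal protein genes (solid) and other genes under 10 kb (dashed), by mark (rows) and stage (columns). H3K4me3 rises to a peak over the gene, H3K27me3 dips over it in c7, c34, E18.5 and GV oocytes (from 15.8% to 3.61% in GV), and H3K36me3 rises over it in c34 and GV oocytes.

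H3K36me3 covered the bodies of most of these genes in c13, c34 and GV oocytes and of few at E18.5. It was called at 74 of 83 in c13 (89.2%, against 69.9% of all genes), 77 in c34 (92.8% against 64.5%), 10 at E18.5 (12.0% against 21.4%) and 74 in GV oocytes (89.2% against 63.1%). Among genes under 10 kb with H3K4me3 at the same stage the shares were 85.3%, 73.9%, 12.5% and 60.8%, so that the ribosomal protein genes were within a few points of such genes in c13 and at E18.5 and above them in c34 and GV oocytes. In c13 the calls rest on very broad peaks, as they do for other genes. A peak of 1 Mb or more was touched by 63 of the 74 genes (85.1%). The share was 83.6% of all genes with a peak within 1 kb and 87.0% of such genes under 10 kb. Without peaks of 1 Mb or more 11 genes (13.3%) were called, against 11.2% of all genes. The median peak over a ribosomal protein gene was 4045 kb wide in c13, against 310 kb for either c34 or GV oocytes. At E18.5 the median distance from these genes to the nearest H3K36me3 peak was 1511 kb, against 656 kb over all genes.

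In the profile around the genes, H3K36me3 rose over the gene in c34 (92.8% at the middle and 67.3% at 40 to 50 kb) and in GV oocytes (85.5% and 70.5%). It was level in c13 (89.2% and 86.7%) and at E18.5 (12.0% and 10.8%). Other short genes had 49.5% and 47.7% in c34 and 46.1% and 45.7% in GV oocytes.

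The most frequent pattern was H3K36me3 in c13, c34 and GV oocytes and not at E18.5, in 59 genes (71.1%, against 40.5% of all genes). All 4 stages had it at 6 genes (7.23% against 8.81%), among them Rpl15, Rpl30, Rpl37, Rpl7 and Rps27a, which encodes a fusion of ubiquitin and a small subunit protein. The E18.5 peaks over these 6 were 160 kb (Rps27a) to 1780 kb (Rpl15) wide. In pairs, 66 genes had H3K36me3 in c13 and not at E18.5 (79.5% against 57.0%), and Rps12 and Rpl24 the reverse (2.41% against 8.45%). Between E18.5 and GV oocytes, 66 had it in GV only (79.5% against 49.6%) and Rpl10l and Rps23 at E18.5 only (2.41% against 7.92%). The latest cultured stage and GV oocytes shared 72 genes. In c34 only were 5, among them Rpl22l1, Rpl11, Rpl3l and Rps10 (6.02% against 6.47%), and in GV only Rps3 and Rps12 (2.41% against 5.04%). From c13 to c34, Rps3, Rpl19, Rpl10l, Rps29 and Rps23 had it in c13 only (6.02% against 16%) and 8 in c34 only (9.64% against 10.7%). By covered length, Rps15a (20002 bp in c13 against 0 at E18.5), Rpl22, Rpl7l1, Rpl5 and Rpl19 led in c13, and Rpl24 (0 against 15163 bp) and Rps12 (0 against 12201 bp) at E18.5. From c34 to GV oocytes, Rpl24 had 15163 and 6437 bp and Rpl34 had 8174 and 13572 bp, so that both were called at either stage with unequal cover. The 8 genes in c34 only were led by Rpl24 (15163 bp), Rps6 (13269 bp), Rpl9 (13068 bp), Rps25 (12693 bp) and Rpl32l (10592 bp), all at 0 bp in c13. Between E18.5 and GV oocytes the longest stretches covered in GV alone were at Rpl22 (0 against 19647 bp), Rps15a, Rpl7l1, Rpl37rt and Rps24. Where the windows of 5 kb around both ends were covered in full, the covered length is set by gene length. Such an order ranks the genes by length and not by the extent of the mark.

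The 9 genes without H3K36me3 in GV oocytes included Rpl22l1, Rpl11, Rpl19, Rpl10l, Rps29, Rps23, Rpl3l and Rps10. Rpl11 was the only one of them with some cover, over 16.0% of its body. This group held 4 of the 5 genes with the widest GV H3K4me3 peaks named above (Rpl11, Rpl19, Rpl10l and Rps29), a pattern noticed after the values were seen. Their widest H3K4me3 peaks ran from 3 kb at Rpl22l1 to 128 kb at Rpl11, with a median of 44 kb, against a median of 10.5 kb over the 72 genes with an H3K4me3 peak and an H3K36me3 body. All genes under 10 kb showed the same order in GV oocytes, with medians of 29 kb without and 13 kb with the H3K36me3 body. In c13 the order was the opposite for the ribosomal protein genes, 4 kb without (8 genes) and 13.5 kb with it, and for all genes under 10 kb, 5 and 16 kb.

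The most frequent combination of marks was all 3 in c13, H3K4me3 with H3K36me3 in both c34 and GV oocytes, and H3K4me3 alone at E18.5. In c13, 51 genes carried all 3 marks (61.4%, against 44.6% of all genes) and 23 carried H3K4me3 with H3K36me3 (27.7% against 14.7%). In c34, 60 carried H3K4me3 with H3K36me3 (72.3% against 37.5%) and 15 all 3 marks (18.1% against 17.6%). At E18.5, 57 carried H3K4me3 alone (68.7% against 34.4%), 13 H3K4me3 with H3K27me3 (15.7% against 15.6%) and 10 H3K4me3 with H3K36me3 (12.0% against 8.27%). In GV oocytes, 70 carried H3K4me3 with H3K36me3 (84.3% against 47%), 8 H3K4me3 alone (9.64% against 11.1%), Rpl18 and Rps3 all 3 marks (2.41% against 8.43%) and Rpl19 H3K4me3 with H3K27me3 (1.20% against 8.97%). Whether marks called at the same gene lay on the same chromatin was not tested.

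**Figure D5:**
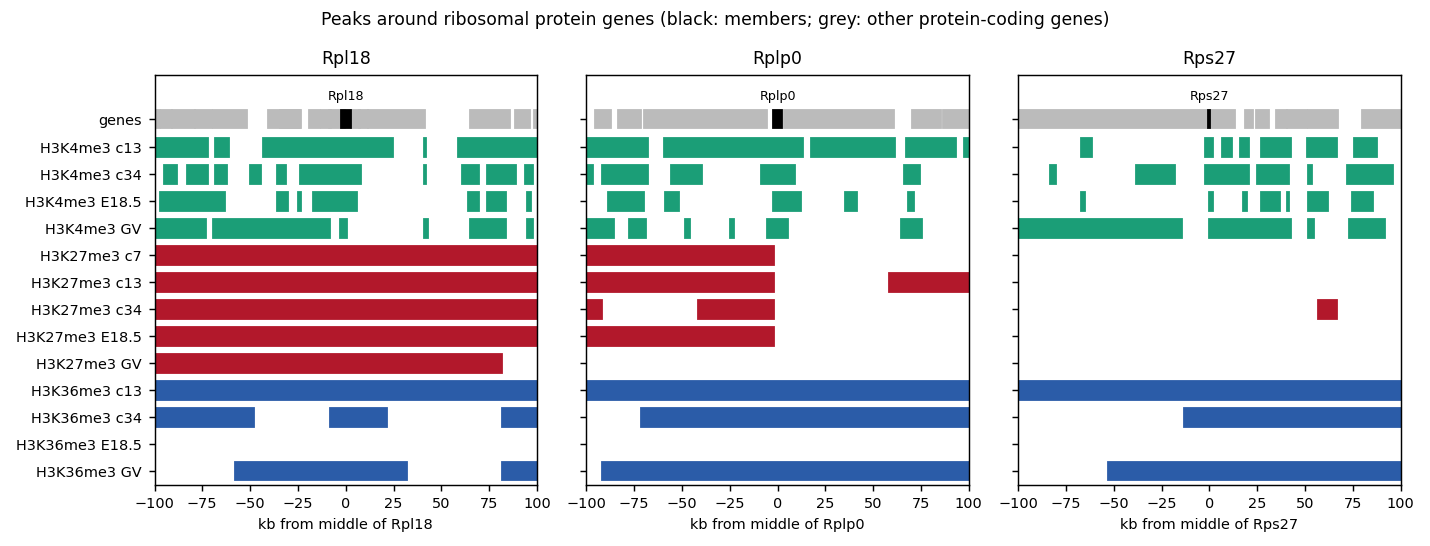
Peaks (bars) of the 13 lists within 100 kb of the middle of Rpl18, Rplp0 and Rps27, with protein-coding genes in the top row (these members in black). Rpl18 lies inside H3K27me3 at all 5 stages, and no H3K27me3 peak reaches Rps27 at any of the 5. At every stage but GV an H3K27me3 peak ends inside Rplp0, at the same step of the 10 kb grid.

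Rps2 and Rpl3l, 5.898 kb apart, had the same call in 9 of 13 lists, as did Rps29 and Rpl36al, 23.547 kb apart, while Rpl41 and Rps26, 75.36 kb apart, had the same call in 10. Rpl13a, a common reference gene in expression work, was covered in full by an H3K27me3 peak of 340 kb in both c7 and c13 and of 390 kb in c34. At E18.5 the nearest peak was 341255 bp away. Rplp0, the base of the ribosomal stalk and another common reference gene, was marked by H3K27me3 at every stage but GV. Only 12.5% of its body was covered each time, by peaks of 210, 260, 40 and 210 kb that ended inside the gene, and in GV oocytes the nearest peak was 99466 bp away. These peaks ended at the same step of the 10 kb grid (chr5:115560000), so the equal cover reflects the grid and the true edge may lie elsewhere.

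The paralogs and retrocopies were the only members without H3K4me3 at some stage, with 90%, 80%, 70% and 80% marked from c13 to GV. Rps27rt, a copy of Rps27 of 374 bp on chromosome 9, had 39 of 45 bases identical to Rps27 from its start, set 1 base apart, but 21 of the 100 bases before it. Rps27 had H3K4me3 peaks of 4, 23, 2 and 43 kb in c13, c34, E18.5 and GV oocytes, while Rps27rt had 7 kb in c13 and lay 2365 bp from the nearest peak in the other 3 lists. H3K36me3 covered Rps27rt in c13, c34 and GV oocytes in peaks of 9530, 450 and 450 kb. Rpl32l, of 592 bp on chromosome 10, was between 2438 bp (c34) and 23970 bp (E18.5) from the nearest H3K4me3 peak, and had H3K27me3 in c13 only and H3K36me3 in c34 and GV oocytes. Rpl37rt had 16079 bp of H3K4me3 within 5 kb of its ends in c13, 11268 bp in c34, 0 bp in E18.5 oocytes and 4000 bp in GV oocytes. Peaks over short copies can belong to a neighbouring gene, which was not tested.

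Rpl10l, a retrogene known for its role in the male germ line, departed from the common pattern. It had H3K4me3 at all 4 stages, in peaks of 7, 7, 3 and 71 kb, H3K27me3 in c7 only, and H3K36me3 in c13 (40 kb) and at E18.5 (140 kb). In c34 and GV oocytes the nearest H3K36me3 peak was 1113378 bp away. Rpl3l, which replaces Rpl3 in striated muscle, had H3K4me3 at all 4 stages, H3K27me3 at all stages but GV and H3K36me3 in c13 and c34. Rpl39l, known from the testis, had H3K27me3 in c7, c13 and at E18.5. Rpl22l1, the paralog of Rpl22, had no H3K27me3 at any stage and H3K36me3 in c34 only. Rpl36al and Rpl7l1 carried H3K4me3 throughout, no H3K27me3, and H3K36me3 in c13, c34 and GV oocytes, and Rps27l did so with H3K27me3 added in c13.

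Small and large subunit genes did not separate by H3K4me3, at 100% for both. H3K27me3 was called at 9 of 30 small and 10 of 43 large subunit genes in c7, at 18 and 32 in c13, and at 6 and 10 in c34. E18.5 oocytes had it at 3 and 8, and GV oocytes at 1 and 2. H3K36me3 was called at 27 and 39 in c13, at 26 and 42 in c34, and at 4 and 5 in E18.5 and 27 and 40 in GV oocytes. In percent, the largest gap was 60% of small against 74.4% of large subunit genes with H3K27me3 in c13.

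Other genes of the translation machinery were set beside these. The 78 mitochondrial ribosomal protein genes, whose products serve the separate ribosomes of mitochondria, had H3K4me3 at 77, 78, 77 and 78 genes in c13, c34, E18.5 and GV oocytes. They had H3K27me3 at 23, 41, 23, 15 and 12 in c7, c13, c34, E18.5 and GV oocytes, and H3K36me3 at 72, 71, 8 and 73 in the 4 lists. H3K27me3 was at 15.4% of them in GV oocytes, against 3.61% of the cytosolic set, and at 52.6% in c13, against 67.5%. Of 24 ribosome biogenesis genes, 24, 24, 23 and 24 had H3K4me3, 7, 15, 8, 3 and 0 had H3K27me3, and 19, 24, 6 and 24 had H3K36me3. Of 16 translation factors and other genes with TOP transcripts, all had H3K4me3 at each stage. H3K27me3 was at 8, 10, 3, 6 and 1 of the 16, the last being Eef2, which encodes the translocation factor of elongation, and H3K36me3 at 9, 15, 3 and 15.

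Of the X-linked ribosomal protein genes, which the choice of autosomes left out, Rpl10, Rpl36a, Rpl39 and Rps4x had H3K4me3 at each of the 4 stages. H3K27me3 was at 3 of these 4 in c7 and at E18.5 (Rpl36a, Rpl39 and Rps4x), at Rps4x in c13, at Rpl36a in c34 and at 0 in GV oocytes. H3K36me3 was at 2, 3, 2 and 3 of them in the 4 lists. H3K27me3 was thus at 3 of these 4 genes in c7 and 1 in c13, while the 83 autosomal genes had 22 and 56. No share over all X-linked genes was taken, so this order cannot be told apart from that of the chromosome.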

How the data were processed

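CATCH-seq libraries of 3 marks at 5 stages were used as the 13 peak lists that the authors deposited. The labels name 35 libraries: 9 H3K4me3, 9 H3K27me3, 8 H3K36me3 and 9 input. Per the file headers each list holds chromosome, start and end, an other unit than counts. The submitters' processing notes name MACS2 2.1.1, SICER 0.0.41, Bowtie2 2.3.4.1, cutadapt 1.9.1, Trim Galore 0.4.1, deepTools 3.5.0, bedtools 2.29.2, Picard 2.18.23 and SAMtools 1.7. The role of each tool, the peak threshold, whether input was used and whether libraries were pooled is not given in the sources used here. Deeper libraries or a lower threshold would lengthen a list, and the grid sets the narrowest peak.

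Gene positions, 1-based, are those of RefSeq on GRCm38.p6, and starts and strands from the RefSeq promoter table, which held 63 of the 83 genes. Since the gene table gives no strand, either end of a gene counted. Shares over all 20665 genes, and over those under 10 kb, are the background. The members and lists were chosen with earlier results of these data known. Genes named were the copies, those without H3K4me3 at a stage, those with H3K27me3 in GV oocytes, at all or at no stages (the first 10 by symbol), those without H3K36me3 in c34 or GV oocytes or with it at all 4 stages, the 5 widest H3K4me3 peaks per stage, the 5 largest differences per comparison, Rplp0, Rpl13a, and members within 100 kb of each other. Other genes were named as examples after their values were seen. Some genes that met these rules are not reported here. Calls were tested on simulated data: 200 of 200 genes given a peak were recovered in lists of either grid. These peaks were placed over an end of each gene, so this checks the arithmetic of the calls and not the real lists. The tools were matplotlib 3.10.9, pandas 2.3.3, scipy 1.17.1 and numpy 2.4.6 under Python 3.11.15.

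Alternatives changed the window, the gene ends, the overlap, the body share, the peaks kept and the members kept. The body rule for H3K27me3 and the split by subunit for H3K4me3 were added after seeing the data. The input libraries were not used here.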

Additional observations from a re-analysis of the deposited data

How the results depend on the processing

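No paired analysis was possible because each mark and stage has a single peak list, so the replicate numbers of the libraries match no values. Of 126 shares of marked genes under another setting, 116 stayed within 1.5 times the main share, and of 184 shares of genes marked at 1 stage and not at another, 128 did. The latter start from few genes, so a single gene can move them. Below, each value is a percent of the 83 genes, "c13 not E18.5" means marked in c13 and not at E18.5, and the cause of each move was not tested beyond what the setting itself removes.

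Where both gene ends had to carry H3K4me3, 55.4% were marked at E18.5 and 55.4% in GV oocytes. The shares were then 33.7% for c13 not E18.5, 2.41% for E18.5 not c13, 26.5% for c34 not GV, 2.41% for GV not c34, 13.3% for c13 not c34, 6.02% for c34 not c13, 12.0% for E18.5 not GV and 12.0% for GV not E18.5. Without peaks below the median width of their list, H3K4me3 was at 53.0% in GV oocytes, and the same shares were 28.9%, 2.41%, 31.3%, 7.23%, 18.1%, 3.61%, 30.1% and 18.1%. With that setting H3K27me3 was at 1.20% for c34 not c13, and H3K36me3 at 4.82% for E18.5 not c13, 13.3% for c34 not GV and 9.64% for c13 not c34.

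With a window of 5 kb, H3K4me3 was at 1.20% for c13 not E18.5, 1.20% for c34 not GV, 0% for c13 not c34 and 1.20% for c34 not c13. H3K27me3 was then at 32.5% in c34 and 8.43% in GV oocytes, with 2.41% for c34 not c13, 6.02% for GV not E18.5, 4.82% for c7 not c13 and 4.82% for E18.5 not c7. With no window, H3K4me3 was at 1.20% for c34 not c13 and 3.61% for GV not E18.5.

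Without peaks of 1 Mb or more, H3K36me3 was at 13.3% in c13, 8.43% for c13 not E18.5, 1.20% for c13 not c34 and 78.3% for c34 not c13. H3K27me3 was at 7.23% for E18.5 not c13, 6.02% for c34 not c13 and 9.64% for c7 not c13. The share of genes that carried H3K36me3 in c13 and not at E18.5 thus rests on these broad peaks. H3K27me3 in c13 fell from 67.5% to 45.8% without them.

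Over the 73 subunit genes alone, H3K4me3 was at 0% for c13 not E18.5, c13 not c34 and GV not E18.5, H3K27me3 at 1.37% for c7 not c13 and H3K36me3 at 1.37% for E18.5 not GV. Over the 9 genes with no neighbour within 10 kb, H3K4me3 was at 0% in the same 3 comparisons. H3K27me3 was at 44.4% in c7, 33.3% at E18.5 and 0% in GV oocytes, with 33.3% for c13 not E18.5, 33.3% for E18.5 not GV, 0% for GV not E18.5, 11.1% for c7 not c13, 22.2% for c7 not E18.5 and 11.1% for E18.5 not c7. H3K36me3 was at 22.2% at E18.5, with 0% for E18.5 not c13, 11.1% for c34 not GV, 0% for GV not c34, 22.2% for c13 not c34, 22.2% for c34 not c13 and 22.2% for E18.5 not GV. With 9 genes, each is worth 11.1%.

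Depth is unknown, so whether a gene without a peak had a weak signal could not be told. Overlap of at least 500 bp, other body shares and the annotated start alone left every share of marked genes within 1.5 times, as did the body rule for H3K27me3 that was chosen after seeing the data.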

Other observations

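Of the 83 genes, 28 (33.7%) hold small nucleolar RNA genes, 57 in all, within their bounds, against 1.72% of all protein-coding autosomal genes. These RNAs guide the modification of ribosomal RNA and are cut from introns of their hosts. All 28 hosts had H3K4me3 at each of the 4 stages. H3K27me3 was at 6, 21, 5, 1 and 1 of the 28 in c7, c13, c34, E18.5 and GV oocytes, against 16, 35, 12, 12 and 2 of the other 55. H3K36me3 was at 27, 26, 3 and 27 of the hosts in c13, c34, E18.5 and GV oocytes, against 47, 51, 7 and 47 of the other 55.

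Pseudogenes with ribosomal protein symbols, of which the gene table holds 272 on the autosomes, had far fewer H3K4me3 peaks than the 83 genes. H3K4me3 was at 22.1% of them in c13, 22.8% in c34, 13.6% in E18.5 oocytes and 42.6% in GV oocytes, against 14.8%, 16.9%, 8.38% and 34.9% of the 9224 other pseudogenes. H3K27me3 was at 39.3%, 55.9%, 48.5%, 46.3% and 30.9% from c7 to GV, against 37.5%, 36.7%, 34.8%, 40.4% and 24.6% of the others. H3K36me3 was at 64.0%, 41.5%, 27.6% and 40.4% from c13 to GV, against 44.0%, 35.6%, 31.2% and 35.8%. Reads of near-identical copies may have been placed at either copy, and how the authors treated such reads is not given in the sources used here.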
